A study of Danio rerio with 26 samples.

Results

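Keratins are the intermediate filament proteins of epithelial cells, and each filament is built from pairs of an acidic type I and a basic type II keratin. In the zebrafish embryo the outermost cells of the blastoderm become the enveloping layer, a thin epithelium that covers the embryo during epiboly and that is known for its keratins. The 10 genes described here, krt4, krt5, krt8, krt17, krt18a.1, krt18b, krt92, krt97, cyt1 and cyt1l, were chosen by name as early embryonic keratins. They are 10 of the 32520 gene identifiers in each of the 3 tables, and 13 other keratin genes are listed there. By their names, krt4, krt5 and krt8 are type II keratins, krt17, krt18a.1, krt18b, cyt1 and cyt1l are type I keratins, and krt92 and krt97 were not assigned to a type. All 10 identifiers matched the reference gene names. The type II genes are krt4 (ENSDARG00000017624), krt5 (ENSDARG00000058371) and krt8 (ENSDARG00000058358), the type I genes krt17 (ENSDARG00000094041), krt18a.1 (ENSDARG00000018404), krt18b (ENSDARG00000028618), cyt1 (ENSDARG00000092947) and cyt1l (ENSDARG00000036832), and the others krt92 (ENSDARG00000036834) and krt97 (ENSDARG00000000212).

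RNA was sequenced from zebrafish of the strains AB, TF and TLF, a label that all 10 groups share. The developmental series held embryos at 0, 2, 4 and 6 hours post fertilisation (hpf), with 3 libraries per time and 20 embryos in each. The oocyte series held stages I, II, III and IV, with 2 libraries per stage and 50 oocytes in each. Stages I and II were collected 1 to 2 days, stage III 4 to 7 days and stage IV 8 to 10 days after the females had been mated to clear mature eggs, and stage IV was isolated by hand without the collagenase used for the other stages. The knockdown series held 4 hpf embryos labelled znf281b KD and, as their control, embryos labelled pCas13d alone, with 3 libraries each, run on another sequencer (G4). Cas13d is a nuclease that a guide RNA directs to cut other RNA, and the KD label does not name it. Neither the guides nor the origin of the knockdown replicates are stated in the labels, so p-values for that series measure only the spread between these libraries, which may be technical.

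Levels are TPM, each gene's share of a library's transcripts after scaling for gene length, so levels of different genes can be compared within a library. The sequencing depth is unknown because TPM keeps none. Changes are differences of log2(TPM + 1) with their standard error (SE) from limma, a linear model with a shared variance estimate, and p-values are adjusted over all genes tested. On this scale the changes of genes near 0 TPM come out too small. Calls in embryos and oocytes needed an adjusted p under 0.05 with a change of 2-fold or more, and calls in the knockdown and in the contrast of 2 embryo intervals that p alone. Genes had to reach a TPM of 1 in 3 libraries (2 libraries in oocytes) to be tested, which 9 keratins passed in embryos, 6 in oocytes and 6 in the knockdown series. Keratin genes resemble each other, and the read assignment used can divide reads among similar copies, so single values of neighbouring keratins are uncertain to that extent.

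**Figure D1:**
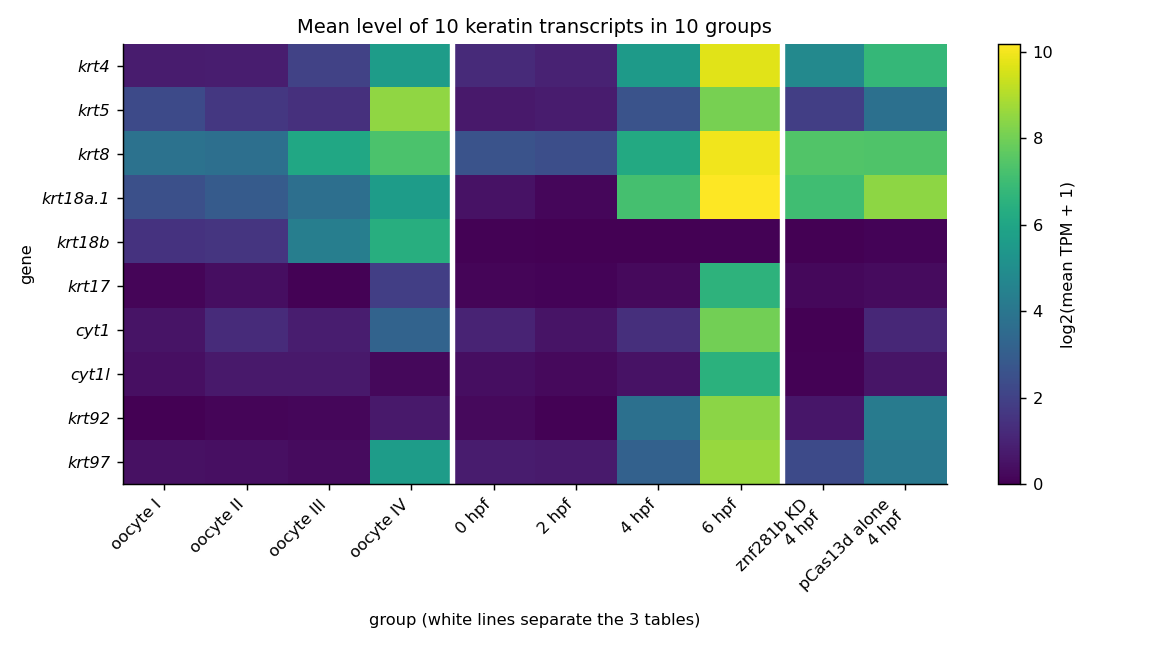
Mean level of each keratin in the 10 groups, as log2(mean TPM + 1), with white lines between the 3 separately normalised tables. The 6 hpf column is the highest for 8 of the genes, and krt18b is highest in stage IV oocytes. The krt5 mean is higher in stage IV oocytes through replicate 1 alone, with 720 TPM in replicate 1 and 0.39 TPM in replicate 2.

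In embryos, 9 of the 10 keratins were near 0 at 0 and 2 hpf, apart from a low level of krt8, and stood between 80.1 and 1256 TPM in every 6 hpf library. Together the 10 genes made up 0.433, 0.482 and 0.419% of all TPM in the 6 hpf libraries, against 0.0259, 0.0494 and 0.011% in the 4 hpf libraries. At 6 hpf the order of the mean levels was krt18a.1, krt8, krt4, krt97, krt92, krt5, cyt1, krt17 and cyt1l. The ranges of krt18a.1 and krt8, krt8 and krt4, krt5 and cyt1, and krt17 and cyt1l overlapped between libraries, while the other neighbours in that order did not. The tissue was the whole embryo, so more cells of a type and more RNA per cell cannot be told apart.

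Among the type II genes, krt8 encodes the type II partner of keratin 18 in simple epithelia in mammals. Its mean level was 5.01 ± 1.14 TPM at 0 hpf and 4.47 ± 0.821 TPM at 2 hpf (SD, n = 3), and its libraries held 68, 124 and 21.9 TPM at 4 hpf and 1014, 1099 and 914 TPM at 6 hpf. It was the only keratin above 3 TPM in any library at 0 or 2 hpf. The krt4 gene, whose promoter is widely used to label the enveloping layer and surface epithelium in zebrafish, had 800, 924 and 797 TPM at 6 hpf, against 38.0, 84.1 and 14.7 TPM at 4 hpf. The krt5 gene, a marker of basal keratinocytes in mammals, had 259, 306 and 249 TPM at 6 hpf, against 3.64, 10.6 and 0.98 TPM at 4 hpf. For krt4, krt5 and krt8 every 6 hpf library lay above every 4 hpf library.

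Among the type I genes krt18a.1, a copy of the gene for keratin 18, was the highest at 4 hpf. It averaged 0.123 ± 0.137 TPM at 2 hpf (SD, n = 3), had 135, 226 and 67.4 TPM at 4 hpf, and had 1146, 1256 and 1083 TPM at 6 hpf. The cyt1 gene, named as an enveloping layer cytokeratin, had 263, 263 and 237 TPM at 6 hpf, against 0.56, 3.88 and 0.35 TPM at 4 hpf. Its relative cyt1l had 82.8, 101 and 85.6 TPM at 6 hpf, against 0.11, 1.07 and 0.11 TPM at 4 hpf. The gene krt17, the namesake of a type I keratin of stressed and appendage epithelium in mammals, had 80.1, 106 and 99.1 TPM at 6 hpf, against 0.18, 0.28 and 0.09 TPM at 4 hpf. These 3 genes were thus near 0 at 4 hpf and present at 6 hpf with no overlap between the libraries.

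The 2 genes with no assigned type lay between these patterns. The krt92 gene had 331, 342 and 338 TPM at 6 hpf, against 8.48, 26.3 and 2.41 TPM at 4 hpf. The krt97 gene had 353, 421 and 387 TPM at 6 hpf, against 4.69, 17 and 2.03 TPM at 4 hpf. The label early embryonic did not hold for krt18b, another copy of the keratin 18 gene. It stayed at or below 0.12 TPM in all 12 embryo libraries and was not tested there.

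**Figure D2:**
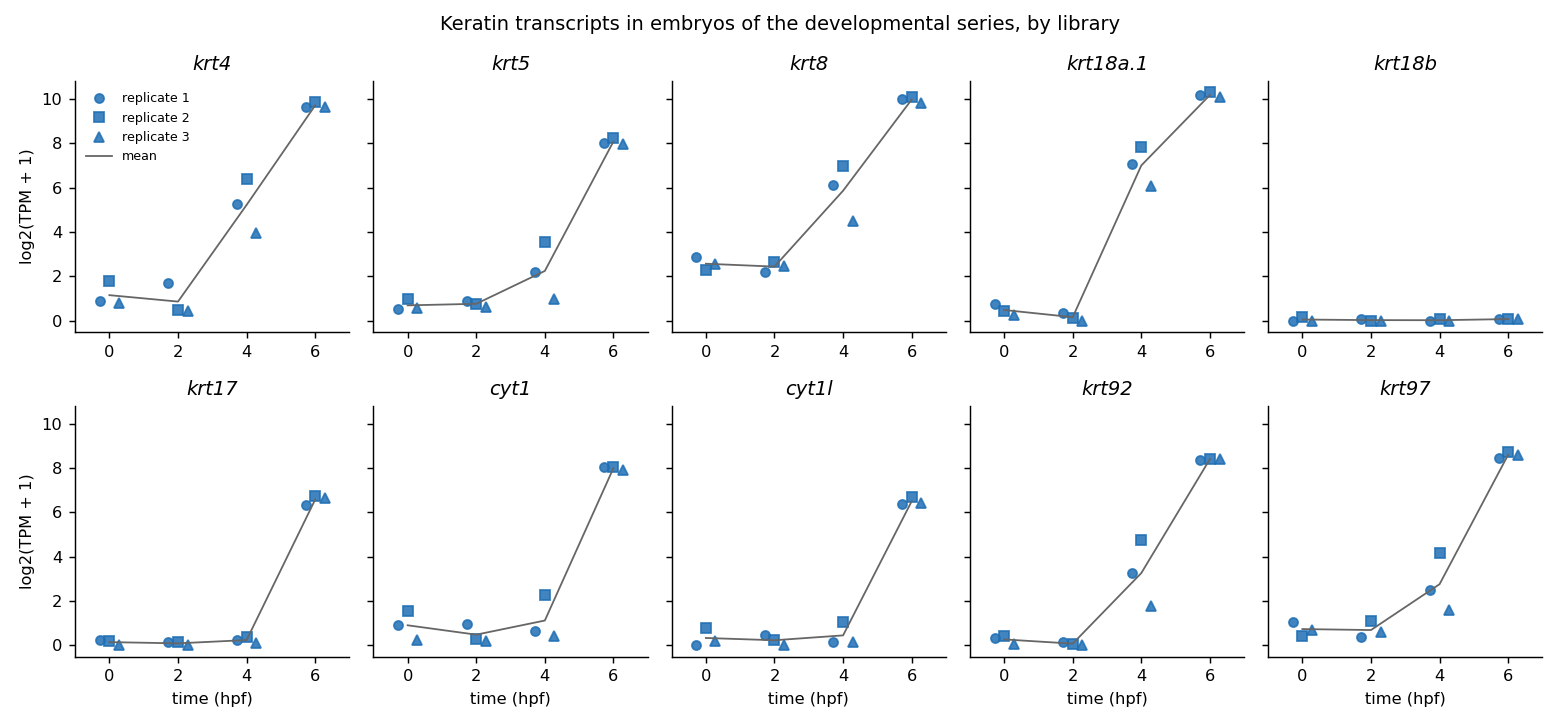
Level of each keratin in every embryo library, as log2(TPM + 1) against time in hpf, with 1 symbol per replicate and a line through the means. All genes but krt18b are high at 6 hpf, and the 4 hpf libraries are spread, with replicate 2 highest for every gene.

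Between 2 and 0 hpf none of the 9 keratins tested was called by limma and none had an unadjusted p under 0.05, while 625 of all genes tested had one. Of all genes tested, 0% were called higher and 0.0122% lower.

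At 4 hpf 6 of the 9 keratins were higher than at 2 hpf, where 7.06% of all genes tested were called higher. The count was partly set by the filter. Of the 6, all but krt8 reached 1 TPM in 3 libraries only with those of 4 or 6 hpf. Near 0 at 2 hpf, these genes could not have been called lower. The largest rise was that of krt18a.1 (log2 change 6.84, SE 0.31, adjusted p = 2.76e-09), followed by krt4 (4.36, SE 0.50, adjusted p = 1.11e-05) and krt8 (3.42, SE 0.43, adjusted p = 2.23e-05). The genes krt92 (3.18, SE 0.51, adjusted p = 0.000149), krt97 (2.07, SE 0.47, adjusted p = 0.00202) and krt5 (1.48, SE 0.45, adjusted p = 0.011) rose less. All 6 had no overlap between the libraries, which held for 11.9% of all genes in that direction. The changes of cyt1 (0.64, adjusted p = 0.205), cyt1l (0.22, adjusted p = 0.47) and krt17 (0.15, adjusted p = 0.385) did not pass the test. The median change was 2.07 over the keratins tested and -0.43 over all genes tested, which moved to 0.04 under median-of-ratios scaling, and the share of higher genes among all calls moved to 60.5% under that scaling, against 28.7% in TPM. The same count of 6 keratins was called under it. The call of krt5 rested on 4 hpf replicate 2, without which its change was 0.84 and fell short of the fold minimum, as it did with a pseudocount of 5 (0.71).

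The 4 hpf libraries differed from each other in their keratin levels. Replicate 2 was highest for all 10 keratins, and replicate 3 was lowest for 8 of them, with summed levels of 259, 494 and 110 TPM in replicates 1, 2 and 3. Genes outside the keratins differed in whether they had this order. The gene cldne, a claudin of the enveloping layer, had 21.2, 35.8 and 10.4 TPM, but klf17, a transcription factor of the same layer, had 109, 103 and 133 TPM. The summed TPM of 12 other enveloping layer genes was 1057, 1082 and 1213 and was highest in replicate 3, where the keratins were lowest. Most of this sum came from epcam and cdh1, with means of 532 and 272 TPM at 4 hpf. Both were already present at 0 hpf, with means of 1270 and 332 TPM, so the sum says little of the list's other genes. Among those, anxa1a (8.77, 14.5 and 3.43 TPM) and evpla (0.7, 4.22 and 0.29 TPM) had the order of the keratins, as cldne did. The genes klf17, evplb (0.28, 0.21 and 0.37 TPM) and ppl (4.48, 10.8 and 8.38 TPM) did not. For grhl3 (78.3, 98 and 78.2 TPM) replicates 1 and 3 were nearly equal. The summed TPM of 7 oocyte genes was 365, 318 and 502, and without buc, which held 205, 147 and 284 TPM of it, 160, 171 and 219. The part of these genes in the spread of the keratins was not tested. At 6 hpf the summed keratin level varied little, with 4329, 4817 and 4190 TPM.

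At 6 hpf all 9 keratins tested were higher than at 4 hpf, where 13.4% of all genes tested were called higher, and the libraries did not overlap for any of the 9, against 22.3% of all genes in that direction. The count of 9 was partly set by the filter. The genes krt17, cyt1l, cyt1 and krt5 reached 1 TPM in 3 libraries only with those of 6 hpf, and krt18b, low throughout, was not tested. The largest changes were those of cyt1 (log2 change 6.87, SE 0.43, adjusted p = 1.37e-08), krt17 (6.34, SE 0.15, adjusted p = 4.7e-11) and cyt1l (6.05, SE 0.26, adjusted p = 8.27e-10), the 3 genes that had not passed the test before. The genes krt5 (5.84, adjusted p = 7.83e-08) and krt97 (5.84, adjusted p = 1.25e-07) changed by the same amount, and krt92 by 5.14 (adjusted p = 8.84e-07). The smallest changes were those of krt4 (4.49), krt8 (4.11) and krt18a.1 (3.18, SE 0.31, adjusted p = 9.1e-07), the genes with the highest levels at 4 hpf. Against 0 hpf, the 9 genes were higher at 6 hpf by 6.17 (cyt1l) to 9.70 (krt18a.1) on the log2 scale. Of all genes, 16.2% were called higher there. Of these 9 keratins, all but krt8 passed the filter only with libraries of 4 or 6 hpf. The median change over the keratins was 5.84 against 4 hpf and 7.41 against 0 hpf, and over all genes tested -0.56 and -1.06. These negative medians moved to 0.04 and 0.03 under median-of-ratios scaling, and the share of higher genes among all calls moved to 57.6 and 55.5% under that scaling, against 28.1 and 23.8% in TPM. The 9 keratins were called higher under both scalings.

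Whether a keratin rose more in the later interval (4 to 6 hpf) than in the earlier one (2 to 4 hpf) was tested as 1 contrast in the same fit. The later change was larger for cyt1 (difference of log2 changes 6.24, SE 0.75, adjusted p = 2.05e-05), krt17 (6.19, SE 0.26, adjusted p = 2.29e-09), cyt1l (5.83, SE 0.45, adjusted p = 5.78e-07), krt5 (4.35, SE 0.77, adjusted p = 0.000452) and krt97 (3.77, SE 0.81, adjusted p = 0.00183). Of the 9, krt18a.1 was called in the other direction, with a smaller later change (-3.67, SE 0.54, adjusted p = 0.000117). The counts of 5 and 1 of 9 keratins stand beside 22.6% of all genes called with a larger and 28.3% with a smaller later change. Of those 5, all but krt97 passed the filter only through the 6 hpf libraries. For krt92 (1.95, adjusted p = 0.0817), krt8 (0.69, adjusted p = 0.468) and krt4 (0.13, adjusted p = 0.915) the difference did not pass the test. Its sign for krt4 and krt92 turned with a pseudocount of 0.1 (-0.97 and -0.45), and for krt4 and krt8 without 4 hpf replicate 3 (-1.12 and -0.65). Without 4 hpf replicate 2, the differences of krt8 (1.79) and krt92 (3.46) passed the test, and that of krt92 also passed with a pseudocount of 5 (3.01, adjusted p = 0.00126) and under median-of-ratios scaling (2.74, adjusted p = 0.0283).

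The share that each gene took of the summed keratin level differed between the times. The krt18a.1 gene made up 26.1% of it at 6 hpf and 49.7% at 4 hpf, and krt8 made up 22.7% at 6 hpf and 24.8% at 4 hpf, from the mean levels of 3 libraries. Summed type II over summed type I TPM was 1.32, 1.35 and 1.3 at 6 hpf, against 0.809, 0.942 and 0.553 at 4 hpf, among the 8 genes with a type. The genes krt92 and krt97, left out of it, held 684, 763 and 725 TPM at 6 hpf, against 13.2, 43.4 and 4.44 TPM at 4 hpf. Counted as type I, they brought the ratio to 0.919, 0.936 and 0.879 at 6 hpf, against 0.737, 0.794 and 0.519 at 4 hpf, and counted as type II, to 1.75, 1.79 and 1.78 at 6 hpf, against 0.906, 1.13 and 0.618 at 4 hpf. Under all 3 assignments every 6 hpf library lay above every 4 hpf library, but which type was the more abundant at 6 hpf turned with the assignment. The ratio of krt8 to krt18a.1 was 0.885, 0.875 and 0.844 at 6 hpf, against 0.505, 0.546 and 0.325 at 4 hpf. The ratio of krt8 to krt18a.1 was chosen after the values had been seen, and no ratio was tested.

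In the order of coding genes in the RefSeq annotation of assembly GRCz12tu, which is not the authors' build and is used here for neighbours only, the keratins lay in groups. The genes krt92, cyt1l, cyt1 and krt17 followed each other with 0 coding genes between them. Within this run, krt92 was at 2.41 to 26.3 TPM at 4 hpf, while cyt1l, cyt1 and krt17 were at or below 3.88 TPM. The genes krt5, krt8 and krt18a.1 also followed each other with 0 coding genes between them, a run that joins type II and type I genes. At 4 hpf their means were 5.08 ± 4.98, 71.2 ± 51 and 143 ± 79.8 TPM (SD, n = 3). The genes krt4 and krt18b had 1 coding gene between them, and krt4 was at 797 to 924 TPM at 6 hpf where krt18b was at 0.04 to 0.07 TPM.

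Time courses were compared by the root mean square difference of centred log2(TPM + 1) means over the 4 embryo times, a description with no test. Among the keratins the nearest were krt17 and cyt1l (0.11), and krt5 and krt97 differed by 0.27. Among 10491 genes whose mean reached 10 TPM at some time, krt18a.1 was nearest to the apolipoprotein gene apoeb (0.23), and si:ch211-152c2.3 (0.41) was also among its nearest genes. The gene nearest to both krt8 (0.12) and krt4 (0.50) was slc7a8a, which encodes an amino acid transporter and had means of 0.05, 0.0267, 14.1 and 191 TPM at 0, 2, 4 and 6 hpf. Next to krt8 were dnase1l4.1 (0.24) and si:dkey-56m19.5 (0.30), and next to krt4 were BX927258.1 (0.53) and the small heat shock protein gene hspb1 (0.56).

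Other genes of the epithelial program were counted by list, and the lists share genes, among them grhl3, klf17 and evpla. Of 12 other enveloping layer genes tested, 6 were higher and 1 lower at 4 hpf than at 2 hpf, and 6 were higher and 0 lower at 6 hpf than at 4 hpf. Of all genes tested, 7.06% were called higher in the earlier and 13.4% in the later comparison. Both counts were partly set by the filter. In the earlier count, cldne, klf17 and grhl3 passed it only with libraries of 4 or 6 hpf. In the later count, evpla and evplb passed it only with their 6 hpf libraries. Of 15 genes for enveloping layer regulators, 8 were higher and 2 lower at 4 hpf than at 2 hpf, with a median change of 1.96, where 17.5% of all genes were called lower, led by the transcription factor genes klf17 (115 TPM at 4 hpf and 0.513 TPM at 2 hpf, log2 change 6.25, adjusted p = 4.13e-12) and grhl3 (5.82, adjusted p = 1e-11). The count of 8 was partly set by the filter. Some of its genes, klf17, grhl3 and grhl1 among them, reached 1 TPM in 3 libraries only with those of 4 or 6 hpf. The regulators grhl2a (-1.66, adjusted p = 1.35e-06) and klf6a (-1.10, adjusted p = 0.00031) fell. At 6 hpf, where 34.2% of all genes were called lower, 4 regulators were higher than at 4 hpf, with tfap2c (2.48, adjusted p = 4.66e-07) and grhl1 (1.72, adjusted p = 1.44e-05), and 2 were lower, klf2a (-2.95, adjusted p = 1.69e-09) and chuk (-1.72, adjusted p = 2.93e-08). The calls of klf6a and chuk ended under median-of-ratios scaling (-0.58 and -0.88, short of the fold minimum), and that of klf6a also with a pseudocount of 5 (-0.75) and without 4 hpf replicate 2 (-0.93).

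The genes for desmosomes, the junctions that anchor keratin filaments, and for the cornified envelope were called mostly in the later interval. Of 17 tested, 3 were higher at 4 hpf than at 2 hpf, among them perp, a desmosomal membrane protein gene (1.36, adjusted p = 0.00273), and 1 was lower, the plakophilin gene pkp4 (-1.12, adjusted p = 5.12e-06). At 6 hpf 11 were higher than at 4 hpf, among them the envoplakin gene evpla (48 TPM at 6 hpf and 1.74 TPM at 4 hpf, log2 change 4.42, adjusted p = 2.66e-07) and the plakophilin gene pkp3a (4.11, adjusted p = 1.03e-09), and pkp1a was lower (-1.91, adjusted p = 0.000198). Of all genes tested, 7.06% were called higher at 4 hpf than at 2 hpf and 13.4% at 6 hpf than at 4 hpf. The count of 11 was partly set by the filter. Some of its genes, evpla and pkp3a among them, reached 1 TPM in 3 libraries only with those of 6 hpf. That most calls fell in the later interval was thus partly set by the filter too. The perp call ended without 4 hpf replicate 2 (0.88) and with a pseudocount of 5 (0.69), and that of pkp4 under median-of-ratios scaling (-0.57) and with a pseudocount of 5 (-0.92). With that pseudocount the call of pkp1a ended as well (-0.88). Of the 13 other keratin genes 3 could be tested, and limma called none at 4 hpf against 2 hpf (0 with an unadjusted p under 0.05). All 3 were higher at 6 hpf than at 4 hpf, with krt99 at 69.6 to 153 TPM (6.28, adjusted p = 6.39e-10), krt96 at 14.9 to 33.5 TPM (3.36, adjusted p = 7.58e-07) and krt91 at 4.12 to 10.7 TPM (2.75, adjusted p = 3.29e-07) in the 6 hpf libraries. Each of them passed the filter only through its 6 hpf libraries, so the filter fixed the direction of this count in advance, and nothing is drawn from it. Of 6 other intermediate filament genes tested, 2 were higher at 6 hpf than at 4 hpf, the epiplakin gene eppk1 (3.65, adjusted p = 2.09e-07) and the lamin gene lmnb2 (1.60, adjusted p = 1.8e-08). Of these 2, eppk1 passed the filter only through its 6 hpf libraries, which fixed its direction in advance. The lamin gene lmnl3 was lower at 4 hpf than at 2 hpf (-1.06, adjusted p = 2.91e-05) and lower again at 6 hpf than at 4 hpf (-3.01, adjusted p = 1.17e-09), and its earlier call ended with a pseudocount of 5, under median-of-ratios scaling (-0.48) and without 4 hpf replicate 2 (-0.88).

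In oocytes the keratins overlapped in part with those of 6 hpf embryos, in which krt8 and krt18a.1 were high and krt18b was near 0. The genes krt8, krt18a.1 and krt18b were present in every library and higher in late stages, while krt92 and cyt1l stayed at or below 1.08 TPM. Of the 2 stage IV libraries, replicate 1 stood apart from replicate 2 in the other keratins. In stage IV replicate 1 and replicate 2, krt5 had 720 and 0.39 TPM, krt97 had 96.9 and 0.11 TPM, krt4 had 79.1 and 16.7 TPM, cyt1 had 14.4 and 2.66 TPM, and krt17 had 5.26 and 0.06 TPM. The order was the reverse for krt8, krt18a.1 and krt18b. Of 12 other enveloping layer genes, all 12 reached 1 TPM in replicate 1 and 7 in replicate 2, among them cldne with 2.98 and 0 TPM and evpla with 2.12 and 0 TPM in the same order. The changes of stage IV are therefore given with and without replicate 1, and the part of surface epithelial tissue in replicate 1 was not tested. Without it the stage holds 1 library, and the spread comes from the other stages alone. What can be read there is the size of a change.

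The keratin 18 copy krt18b, near 0 in all embryos, had 1.75 and 1.89 TPM in stage I, 1.57 and 2.33 TPM in stage II, 25 and 14.5 TPM in stage III and 45.9 and 121 TPM in stage IV. Its copy krt18a.1 had 3.86 and 5.2 TPM in stage I, 5.53 and 7.69 TPM in stage II, 13 and 11.5 TPM in stage III and 34.1 and 62.8 TPM in stage IV. The type II gene krt8 was the highest of the 3, with 15.5 and 10.8 TPM in stage I, 11.5 and 12.8 TPM in stage II, 77.7 and 55.1 TPM in stage III and 120 and 192 TPM in stage IV. For all 3 genes no stage III library overlapped a stage II library, and no stage IV library overlapped a stage III library. Of the 6 keratins tested, 4 lay higher without overlap in stage III than in stage II, and 5 in stage IV than in stage III, as did 19.7 and 33.1% of all genes.

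No keratin was called between stages II and I, where 0.156% of all genes tested were called higher and 0.0187% lower, and 0 of the 6 tested had an unadjusted p under 0.05 in limma. The share of higher genes among all calls there was 66.7% under median-of-ratios scaling and 89.3% in TPM. In stage III, 2 of the 6 keratins tested were higher than in stage II, krt18b (2.78, SE 0.47, adjusted p = 0.0262) and krt8 (2.34, SE 0.29, adjusted p = 0.011), where 1.99% of all genes were called higher. The changes of krt4 (1.19, adjusted p = 0.329) and krt18a.1 (0.81, adjusted p = 0.247) did not pass the test. The krt18b call ended whichever of these 4 libraries was left out (adjusted p 0.0704 to 0.222), and the krt8 call when a library other than stage III replicate 2 was left out (0.0675 to 0.114). In stage IV, 5 of 6 were higher than in stage III, where 9.79% of all genes were called higher. These were krt4 (3.24, adjusted p = 0.00779), cyt1 (2.13, adjusted p = 0.0376), krt18b (1.92, adjusted p = 0.0199), krt18a.1 (1.84, adjusted p = 0.00682) and krt8 (1.20, adjusted p = 0.018). None of the 5 was called when stage III replicate 2 was left out. Without stage IV replicate 2 the calls of krt8 (0.87) and krt18b (1.23) ended, and without stage IV replicate 1 that of cyt1 (1.10). The changes without stage IV replicate 1, from 1 stage IV library, were 2.16 for krt4, 1.54 for krt8, 2.27 for krt18a.1 and 2.61 for krt18b. For krt5 the change of 3.64 did not pass the test (SE 2.31, adjusted p = 0.278).

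The comparison of stage IV with stage I had the larger changes. Since only stage IV was isolated without collagenase, stage and isolation cannot be told apart in any comparison with stage IV. The same 5 genes were higher in stage IV, by 4.75 for krt18b (adjusted p = 0.000218), 4.47 for krt4 (adjusted p = 0.00095), 3.46 for krt8 (adjusted p = 0.000106), 3.11 for krt18a.1 (adjusted p = 0.000329) and 2.36 for cyt1 (adjusted p = 0.0162), where 16.6% of all genes were called higher. Without stage IV replicate 1, and so with 1 stage IV library, the changes were 5.44 for krt18b, 3.38 for krt4, 3.79 for krt8 and 3.54 for krt18a.1. That of cyt1 was 1.33, and its call ended. The cyt1 call also ended when either stage I library was left out. For krt5 the change was 2.82 with an adjusted p of 0.345, and it was -1.69 without stage IV replicate 1 and 7.33 without replicate 2, so it was decided by single libraries. The median change of the 6 keratins tested was 3.28 between stages IV and I and -0.07 over all genes tested.

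**Figure D3:**
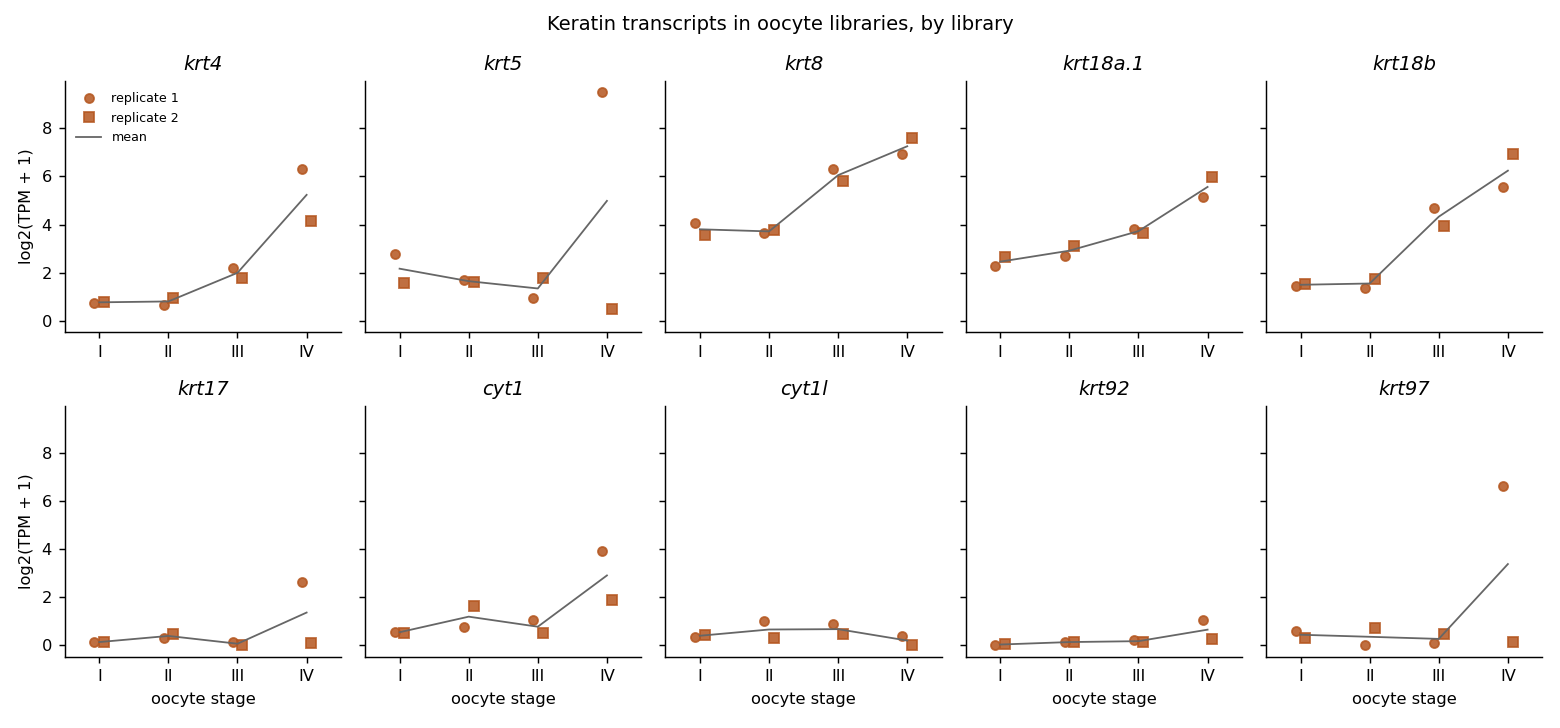
Level of each keratin in every oocyte library, as log2(TPM + 1) against stage, with 1 symbol per replicate and a line through the means. The genes krt8, krt18a.1 and krt18b are high in both stage IV libraries, whereas krt5, krt97 and krt17 are high in stage IV replicate 1 alone.

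Markers of other ovarian cells were mostly higher in the late stages as well, though not all of them. The summed TPM of 13 follicle somatic genes was 396 and 350 in stage I, 352 and 366 in stage II, 573 and 514 in stage III and 1021 and 967 in stage IV, with 12 of 13 genes at 1 TPM or more in both stage IV libraries. Much of this sum was cyp11a1, with means of 270 TPM in stage I and 601 TPM in stage IV. That gene also had a mean of 247 TPM in 0 hpf embryos, where the list summed to 332, 313 and 325 TPM. The sum is therefore not specific to follicle cells. The sum of 9 stromal and vessel wall genes was 7.15 and 6.54 in stage I, 12.4 and 14.6 in stage II, 115 and 99.2 in stage III and 146 and 263 in stage IV. The sum of 9 blood, endothelial and immune genes was 18.7 and 23.5 in stage I, 18.2 and 18.5 in stage II, 112 and 62.3 in stage III and 326 and 1133 in stage IV. The sum of 7 oocyte genes ran the other way, with 6544 and 6264 in stage I, 6472 and 6388 in stage II, 4705 and 4959 in stage III and 2263 and 3210 in stage IV. Within it buc did not fall, with 1189 and 1089 TPM in stage I and 1264 and 1613 TPM in stage IV. Without buc the sum was 5356 and 5175 TPM in stage I and 999 and 1597 TPM in stage IV. In stage IV against stage I, 9 of 12 follicle, 7 of 8 stromal and 6 of 8 blood genes tested were called higher. Of all genes tested, 16.6% were. In the other direction, 4 of 7 oocyte genes were called lower, where 16.5% of all genes were called lower. The counts of higher genes were partly set by the filter. Some of these genes, lhcgr, cdh5 and pdgfrb among them, reached 1 TPM in 2 libraries only with those of stage IV. Against stage III, 7 of 12 follicle, 0 of 8 stromal and 5 of 8 blood genes were higher, where 9.79% of all genes were. In that comparison 2 follicle genes were lower, cyp19a1a (5.04 TPM in stage IV and 105 TPM in stage III) and gsdf (4.25 and 12.2 TPM), as were 4 of 7 oocyte genes and 1486 of all 16067 genes. Without stage IV replicate 1 the median changes against stage I were 2.79 for the follicle, 2.54 for the stromal, 2.92 for the blood and -1.37 for the oocyte genes tested. The part of these cell types in the keratin changes was not tested. Set beside each other without a test, since the tables were normalised separately, stage IV oocytes and 0 hpf embryos had means of 156 and 5.01 TPM for krt8, 83.6 and 0.04 TPM for krt18b, 48.4 and 0.413 TPM for krt18a.1, and 47.9 and 1.34 TPM for krt4.

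The knockdown series asked how the embryo responds at 4 hpf to a reduction of znf281b, a gene for a zinc finger protein. The znf281b transcript itself had 149, 147 and 171 TPM in the KD libraries, against 219, 269 and 267 TPM in the pCas13d alone libraries (log2 change -0.69, SE 0.11, adjusted p = 0.00991), so it was lowered and not lost. That call ended without KD replicate 1 (adjusted p = 0.0513) or KD replicate 2 (adjusted p = 0.0573). Of the 6 keratins tested, 3 were lower in the KD embryos, krt92, krt4 and krt97, and none was higher, where 3.05% of all genes tested were called lower and 6.32% higher, and 0 of the 6 had an unadjusted p under 0.05 in the higher direction. The share of higher genes among all calls was 55.7% under median-of-ratios scaling and 67.5% in TPM, and 3 keratins were lower under both. The median change of the 6 was -1.58, against 0.09 over all genes tested.

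The largest change was that of krt92, which had 0.29, 0.38 and 0.99 TPM in KD embryos, against 11.9, 3.48 and 37.8 TPM in pCas13d alone embryos (log2 change -3.10, SE 0.66, adjusted p = 0.0259). Its KD levels were all under 1 TPM, so it passed the filter only through the pCas13d alone libraries. Its place in the count of 3 thus depended on its level in that control. The krt4 level was 24.8, 28.2 and 26.1 TPM in KD embryos, against 92.7, 47.3 and 186 TPM in pCas13d alone embryos (-1.79, SE 0.40, adjusted p = 0.0309). The krt97 level was 3.48, 4.15 and 4.11 TPM in KD embryos, against 13.6, 9.39 and 24.9 TPM in pCas13d alone embryos (-1.69, SE 0.31, adjusted p = 0.0166). For these 3 genes the groups did not overlap.

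The krt18a.1 level was 121, 126 and 146 TPM in KD embryos, against 343, 168 and 525 TPM in pCas13d alone embryos. The groups did not overlap either, but the change of -1.25 (SE 0.34, adjusted p = 0.0572) did not pass the test. The krt5 level was 1.82, 2.76 and 3.66 TPM in KD embryos, against 7.97, 3.2 and 26.7 TPM in pCas13d alone embryos, with overlap (-1.47, SE 0.59, adjusted p = 0.152). Unlike the other 5, krt8 had a change near 0, with 141, 176 and 191 TPM in KD embryos, against 134, 91.3 and 272 TPM in pCas13d alone embryos (0.17, SE 0.34, adjusted p = 0.784). The absence of overlap in the lower direction, found for 4 of the 6 keratins, held for 11.3% of all genes. The genes krt17, krt18b, cyt1 and cyt1l were at or below 3.09 TPM in all 6 libraries and were not tested.

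These calls were close to the threshold. None of the 3 was called when any KD library or pCas13d alone replicate 1 was left out, or when no filter on low values was applied, with adjusted p-values of up to 0.101 for krt4, 0.0909 for krt92 and 0.0662 for krt97, while the changes kept their sign. The krt92 call also ended with a pseudocount of 5 (-1.72, adjusted p = 0.0575). The pCas13d alone libraries also differed among themselves, with replicate 3 highest for all 10 keratins and replicate 2 lowest for 9. Without replicate 2, 5 keratins were called lower, krt5 (-2.10) and krt18a.1 (-1.69) besides the 3.

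**Figure D4:**
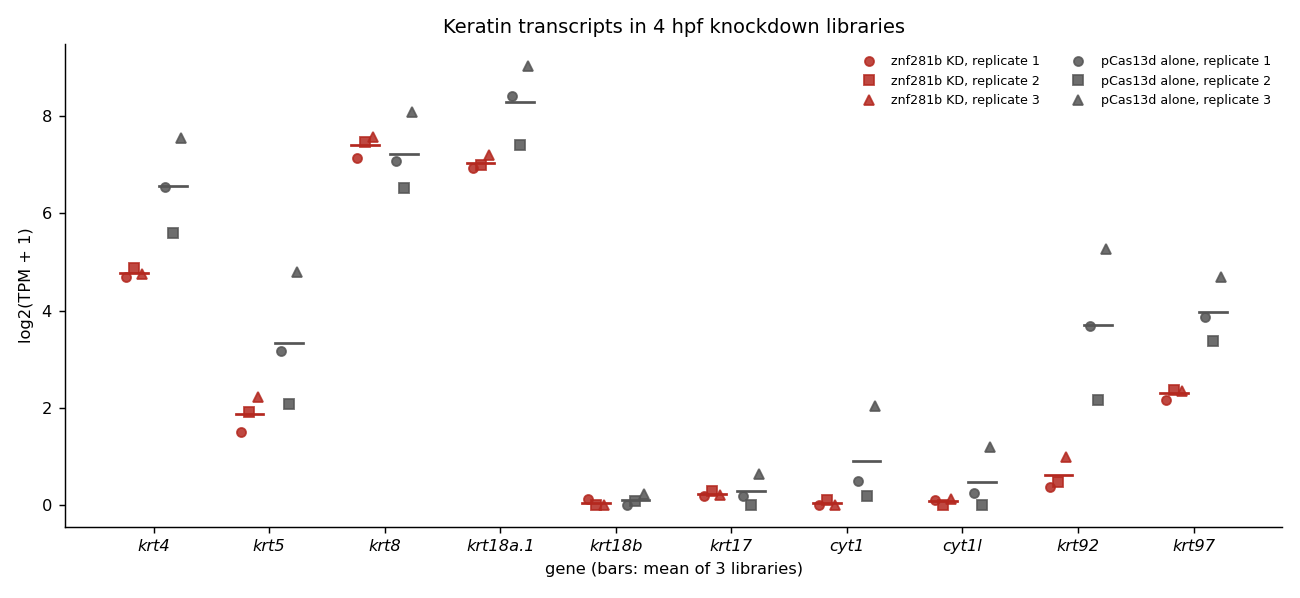
Level of each keratin in every knockdown library, as log2(TPM + 1), with KD libraries in red at the left and pCas13d alone libraries in grey at the right of each gene, and bars at the means. Of the 6 keratins tested, the groups are separate for krt4, krt18a.1, krt92 and krt97 and overlap for krt5 and krt8.

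The proportions of the keratins within each library are given as ratios. The ratio of krt8 to krt4 was 5.69, 6.24 and 7.31 in KD embryos, against 1.44, 1.93 and 1.46 in pCas13d alone embryos, and 1.79, 1.47 and 1.49 in the 4 hpf embryos of the developmental series. The ratio of krt8 to krt18a.1 was 1.16, 1.39 and 1.31 in KD embryos, against 0.39, 0.544 and 0.518 in pCas13d alone embryos. Summed type II over type I TPM was 1.38, 1.63 and 1.51 in KD embryos, against 0.682, 0.843 and 0.915 in pCas13d alone embryos, and with krt92 and krt97 counted as type I it was 1.34, 1.58 and 1.46 in KD embryos, against 0.635, 0.783 and 0.818 in pCas13d alone embryos. The krt8 gene made up 50.6% of the summed keratin level in KD embryos and 24.8% in pCas13d alone embryos, and krt18a.1 made up 39.3% and 51.7% in the same order. Each of the 3 ratios was higher in every KD library than in every pCas13d alone library. The 2 ratios of krt8 were chosen after the values had been seen, and none of the 3 was tested.

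**Figure D5:**
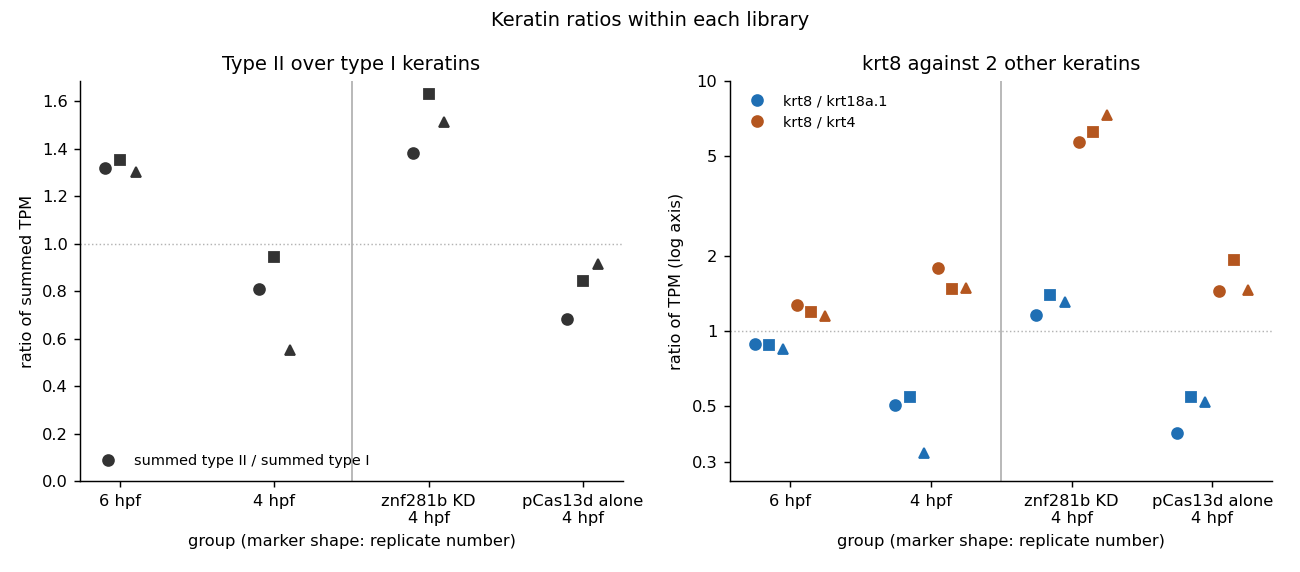
Ratios of keratin TPM within each library at 6 and 4 hpf in the developmental series and in the knockdown series, with 1 symbol per replicate. The left panel gives summed type II over type I keratins, and the right panel, on a log axis, krt8 over krt18a.1 and krt8 over krt4, for which the KD libraries lie above the pCas13d alone libraries.

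Of 14 genes for enveloping layer regulators tested, 6 were lower and 1 higher in the KD embryos, with a median change of -0.52. Over all genes tested, 3.05% were called lower and 6.32% higher, with a median change of 0.09. The largest falls were those of tfap2a (19.7 TPM in KD and 59.1 TPM in pCas13d alone embryos, log2 change -1.51, adjusted p = 0.00318) and ovol1a (12.6 and 37.4 TPM in the same order, -1.41, adjusted p = 0.0246), both genes for transcription factors. The ovol1a call ended in the same settings as those of the keratins. Of 10 other enveloping layer genes 2 were lower and none higher, with a median of -0.07. The 2 were grhl1 (-1.27, adjusted p = 0.0224) and grhl3 (-0.53, adjusted p = 0.0163). Both are already among the 6 lower regulators, so this count adds no further gene. None of 13 desmosome and cornified envelope genes and none of 4 other intermediate filament genes was called by limma, with medians of -0.18 and -0.23 and with 2 and 1 at an unadjusted p under 0.05, all lower. Of the 7 genes of the oocyte list 1 was called higher and 0 lower, with a median of 0.07. The gene called was buc, which encodes a germ plasm organiser (396 TPM in KD and 144 TPM in pCas13d alone embryos, 1.55, adjusted p = 0.015). The list summed to 897, 891 and 909 TPM in KD embryos, against 712, 737 and 609 TPM in pCas13d alone embryos, and without buc to 499, 490 and 521 TPM in KD embryos, against 532, 565 and 530 TPM in pCas13d alone embryos.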

How the data were processed

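The authors deposited TPM per gene, in 1 table each for oocytes, embryos and the knockdown, and the submitters' processing notes name STAR 2.7.3a, RSEM and danRer11. The annotation release and any trimming are not stated there. Of the tables' columns, 0 were of samples outside the series.

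Rows were matched across tables by gene identifier, of which 29201 had a reference name. Each table was fitted once, over all its groups, with limma (version 3.58.1, R 4.3.3) on log2(TPM + 1), with a mean trend and Benjamini-Hochberg adjustment over 16328 (embryo), 16067 (oocyte) or 15068 (knockdown) genes, and the code was tested on simulated data. The alternatives were pseudocounts of 0.1 and 5, no filter, median-of-ratios scaling, 2 groups alone, a replicate block and leaving out each library.

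The keratins and gene lists were chosen with earlier results of these data known. All 10 keratins are named in each comparison. The rule for other genes took the 3 nearest time courses of each of the 3 keratins highest at 6 hpf, the 2 largest rises and falls per list with a mean of at least 5 TPM, and markers beside a keratin change. A gene that this rule names is not reported here. Outside it, krt91, buc, cldne, evpla, evplb, ppl, anxa1a, epcam, cdh1, cyp11a1, cyp19a1a, gsdf, lhcgr, cdh5 and pdgfrb were chosen after their values were seen. So were klf17 and grhl3 by library at 4 hpf. Same-numbered libraries deviated together at 6 and 4 hpf (correlations 0.127 to 0.32 over 3 pairs), which by the rule pairs them. At 4 and 0 hpf, a pair of times not compared here, the correlations were 0.158 to 0.215. In the other comparisons with 3 pairs not every correlation was over 0.1. Promoter and protein sequences were not analysed here.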

Additional observations from a re-analysis of the deposited data

How the results depend on the processing

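Of 226 counts of keratins called under an alternative, 212 stayed within 1.5 times the count reported, 13 were smaller and 1 larger. Of 957 values of single genes, 875 kept their direction and their side of the threshold, 62 lost the call, 9 gained it and 11 changed sign. The embryo counts moved least, with 5 to 6 keratins higher at 4 hpf and 9 in each case at 6 hpf when single libraries were left out, and 5 to 7 with a larger later change. For stage III against stage II the count of 2 was 1 with a pseudocount of 5, 1 with no filter and 0 to 1 when a library was left out. For stage IV against stage III the count of 5 was 3 in a fit of the 2 groups alone and smaller whichever library was left out. Against stage I it moved both ways when a library was left out, each time with 1 library left in a stage. The knockdown count of 3 lower was 0 with no filter and 0 to 5 when a library was left out. The changes of sign outside the differences of intervals were those of cyt1l at 4 hpf without 4 hpf replicate 2 (-0.08, range to 0.37 over the libraries), of krt5 in stage III without stage III replicate 1 (0.11, range from -0.72), of cyt1 in stage III without stage II replicate 2 (0.01, range from -0.85), of krt5 in stage IV without stage IV replicate 1 (-0.87 against stage III and -1.69 against stage I, where leaving out replicate 2 gave 8.15 and 7.33), and of krt8 in the knockdown without pCas13d alone replicate 2 (-0.18, range to 0.60). The difference of intervals changed sign for krt4 with a pseudocount of 0.1 (-0.97), without 2 hpf replicate 1 (-0.28) and without 4 hpf replicate 3 (-1.12, range to 1.32), for krt8 without 4 hpf replicate 3 (-0.65, range to 1.79) and for krt92 with a pseudocount of 0.1 (-0.45). The cause was not tested. With the replicate number as a block, 9 keratins were higher at 6 hpf than at 4 hpf, as without it. At 6 and 0 hpf the correlations were 0.086 to 0.144, with 6 of 6 libraries nearest to their own number, and the block gave 9 keratins higher, as without it. In the knockdown the numbers were only shared (correlations -0.016 to 0.135, with 3 of 6 libraries nearest to their own number), and the block gave 4 keratins lower, with krt18a.1 added (adjusted p = 0.0233). The block moved no other count of keratins. Depth is unknown in TPM, and keratins near 1 TPM are the least precise.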

Other observations

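Keratin genes outside the 10 were also present in late oocytes. The gene krt91, which follows krt17 in the RefSeq gene order, had 907 and 212 TPM in stage IV and 36.2 and 20.8 TPM in stage III, and was higher in stage IV than in stage III (log2 change 3.95, SE 0.62, adjusted p = 0.00347 by limma) and than in stage I (7.58, SE 0.62, adjusted p = 9.77e-05). In stage IV its mean of 559 TPM was above that of each of the 10 keratins, while in the 6 hpf embryos it reached 10.7 TPM at most. The genes krt94 (55.6 ± 28.8 TPM, SD, n = 2) and krt15 (22.4 ± 7.91 TPM) were higher in stage IV than in stage III as well (1.65, adjusted p = 0.0239, and 1.91, adjusted p = 0.0172). The gene krt1-19d had 32.9 TPM in 1 stage IV library and 0 TPM in the other. Without stage IV replicate 1, and so with 1 stage IV library, the changes against stage III were 2.90 for krt91, 2.19 for krt94 and 2.26 for krt15. That of krt91 against stage I was 6.53. These genes were chosen after their values had been seen.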
